A study of Sus scrofa with 12 samples.

Results

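Immediate early genes are transcribed within minutes of a stimulus, without new protein synthesis, and most of them encode transcription factors that pass the signal on to later genes. In skeletal muscle they respond to contraction, stretch, injury and stress hormones. Chromatin at such genes is commonly open before the stimulus arrives, so that accessibility alone does not give the amount of mRNA. The 10 genes described here were FOS, FOSB, JUN, JUNB, EGR1, ATF3, MYC, NR4A1, NR4A2 and NR4A3. FOS, FOSB, JUN and JUNB encode basic leucine zipper proteins that pair as the AP-1 factor, and ATF3 is a stress-induced protein of the same fold. EGR1 is a zinc finger factor, MYC a helix-loop-helix factor of cell growth, and the NR4A proteins are orphan nuclear receptors linked to exercise and glucose metabolism in muscle.

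ATAC-seq, in which a transposase inserts adapters into accessible DNA and more reads mean more open chromatin, was carried out on frozen longissimus dorsi from Luchuan and Duroc boars, 3 of each breed. Luchuan is a Chinese fat-type breed and Duroc a lean-type breed, and all animals were 180 days old, were kept alike and were fasted overnight before death. The deposited table gives 1 read count per open region and breed, so single boars cannot be followed, no standard deviation between animals can be given and no test between the breeds was made. RNA-seq was not analysed here.

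An open region belonged to a gene when its midpoint lay in the gene body in the Sscrofa11.1 annotation or within 10 kb of it. This gave 80 of the 140081 regions, from 3 each for EGR1 and MYC to 15 for ATF3, and every one of the 10 genes had a region. They held 27758 Duroc and 18975 Luchuan reads, of 20759894 and 13746020 in all regions. Ratios are given as log2 of Luchuan to Duroc reads, with 1 added to each count, after the Luchuan count was multiplied by 1.48, the median ratio of Duroc to Luchuan reads over the regions called in both breeds. A value above 0 therefore means more reads in Luchuan. The interval beside a ratio is the 95% Clopper-Pearson interval of the Luchuan share of the reads. It covers counting error only, and PCR copies of a molecule can be counted more than 1 time. In bulk muscle, a smaller share of nuclei with an open region and a less open region in each nucleus cannot be told apart. The gene table has no strand, so ends of genes are named here as lower or upper by coordinate.

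The labelled tissue was checked against marker genes. All 10 skeletal muscle fiber markers had open regions, with a median of 828 Duroc and 449 Luchuan reads per kb of region. Satellite cell markers had medians of 405 and 237 reads per kb, leukocyte markers 320 and 245, adipocyte markers 259 and 142, smooth muscle markers 255 and 269, fibro-adipogenic markers 210 and 142, and endothelial markers 179 and 117. Genes of other tissues were not free of reads, since ALB, APOA1, INS and GFAP had regions with medians of 311 and 196 reads per kb, so an open region near a marker does not by itself show the cell type. FABP4, LUM and KRT5 had no region in the table. The muscle fiber markers had a median log2 ratio of -0.35, with 9 of 10 below 0. The medians of the adipocyte, endothelial, fibro-adipogenic, leukocyte, satellite cell and smooth muscle lists were 0.10, -0.0004, -0.0022, -0.10, -0.21 and 0.16. Each of these lists had only 3 to 5 genes with a region. Adipocyte genes ran from -0.93 to 0.34, endothelial from -0.51 to 0.79 and fibro-adipogenic from -0.10 to 0.39. Leukocyte genes ran from -1.07 to 0.18, satellite cell from -0.57 to 0.09 and smooth muscle from -0.09 to 0.64. A median near 0 thus does not mean that single markers were alike in both breeds. The part of cell composition in the ratios below was not tested.

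The regions of these genes held more reads than most regions in both breeds. The median region of the 10 genes had 175 reads in Duroc and 116 in Luchuan, against 61 and 38 over all regions, and was 316 bases long against 251. Per kb of region, the medians were 620 Duroc and 433 Luchuan reads, against 235 and 150. Of the 80 regions, 54 were called as peaks in both breeds, which is 67.5%, against 49.1% of all regions. Another 22 were called in Duroc alone and 4 in Luchuan alone. Calling in 1 breed did not mean an absence of reads in the other, since the 22 Duroc-specific regions held 6 to 141 Luchuan reads and the 4 Luchuan-specific regions 13 to 104 Duroc reads. The ratio was below 0 in 15 of the 22 and above 0 in 3 of the 4, and as the calls rest on the same reads, this adds no separate evidence.

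The read density of every member, over its own regions, was above the median of 16986 protein-coding genes with a region, which was 439 Duroc and 290 Luchuan reads per kb, but not all were far above it. ATF3 stood at percentile 57.6 of genes in Luchuan and 71.3 in Duroc, and MYC at 82.7 and 67.1, while the other 8 genes stood at 86.5 or higher. By summed reads MYC was below the median gene in Duroc, at percentile 45.7. In Duroc, JUN had the highest density with 953 reads per kb, followed by EGR1 with 892 and FOS with 881. JUNB had 804, NR4A1 754, FOSB 743, NR4A3 701, NR4A2 657, ATF3 550 and MYC 524 Duroc reads per kb. Between neighbours in this order, exact Poisson intervals overlapped except for FOS over JUNB, JUNB over NR4A1 and NR4A2 over ATF3. In Luchuan, before scaling, EGR1 stood at 657, FOS at 643, JUN at 597, NR4A1 at 573 and JUNB at 524 reads per kb. NR4A2 followed with 492, NR4A3 with 483, FOSB with 458, MYC with 423 and ATF3 with 315. Here the intervals of neighbours overlapped except for NR4A1 over JUNB and MYC over ATF3. By these values EGR1, FOS and JUN were the most densely read members in both breeds, and ATF3 and MYC the least. In Luchuan, however, the intervals of JUN and NR4A1 overlapped, as did those of FOSB and MYC. The density averages over all regions of a gene, weak ones included. The strongest of the 15 regions of ATF3 alone had 920 Duroc reads per kb.

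**Figure D1:**
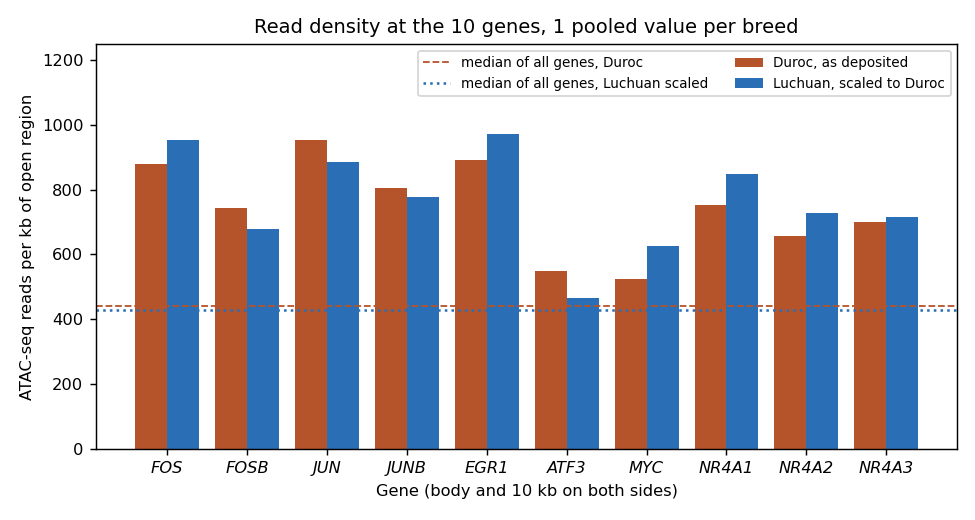
Reads per kb of open region (vertical axis) at each of the 10 genes, as deposited for Duroc and multiplied by 1.48 for Luchuan. Each bar is 1 pooled value per breed, without an error between animals, the horizontal lines are the medians of all genes, and every bar stands above them.

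Summed over its regions, no member passed 1.5-fold between the breeds in either direction. As 5.46% of all genes passed it as higher in Luchuan and 3.08% as higher in Duroc, a count of 0 among 10 genes does not set the members apart. The ratios ran from -0.24 for ATF3 to 0.26 for MYC with a median of 0.07, and the median of all genes was -0.0015 with an interquartile range of -0.14 to 0.15. Only ATF3, NR4A1 and MYC lay outside that range. The counting interval lay above 0 for FOS, EGR1, MYC, NR4A1 and NR4A2 and below 0 for FOSB, JUN and ATF3. It included 0 for JUNB and NR4A3. Among all genes it lay above 0 for 23.2% and below 0 for 24.7%, beside 5 and 3 of the 10 members. The interval narrows with the number of reads, and 9 of the 10 members held more reads than the median gene in both breeds, so these shares are not at equal depth. When the Luchuan counts were scaled by the clean reads of the libraries instead, all ratios shifted by -0.20, the median of all genes became -0.20, and FOS, EGR1 and the NR4A genes moved below 0. That scaling moves all genes by the same amount and leaves their order as it is. Directions are given here relative to the regions called in both breeds.

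**Figure D2:**
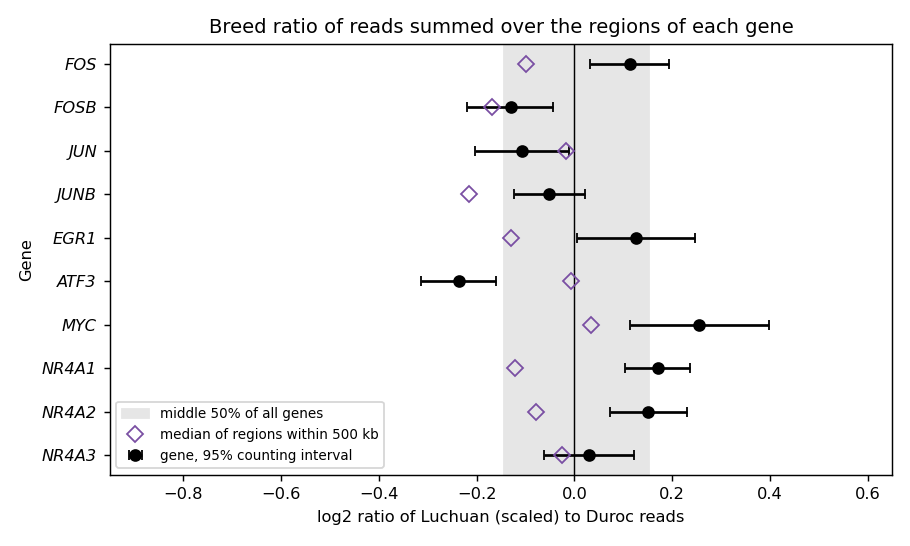
Log2 ratio of Luchuan to Duroc reads (horizontal axis) summed over the regions of each gene, with 95% counting intervals as bars. ATF3 lies lowest at -0.24 and MYC highest at 0.26, and the grey band spans the interquartile range of all genes, -0.14 to 0.15. Diamonds give the median of other single regions within 500 kb, which is not a sum over reads. Scaling by clean reads would shift every gene by -0.20.

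Single regions showed the same picture. None of the 80 regions was 2-fold or more higher in Luchuan, where 7.20% of all regions were, and 3 regions, or 3.75%, were 2-fold or more higher in Duroc, where 5.66% of all regions were. Weak regions pass such a limit more easily. Of the 69 member regions with 100 or more reads in both breeds together, 0 were 2-fold higher in Luchuan and 1 was 2-fold higher in Duroc, beside 1.42% and 4.69% of all regions of that depth. The counting interval lay above 0 for 10 member regions, or 12.5%, and below 0 for 12 of the 80, near the 13.6% and 15.4% of all regions. All 3 regions past 2-fold, and 7 of the 12 with an interval below 0, belonged to ATF3. Of the 80 regions, 43 were above 0 and 37 below 0, and the median ratio of all regions was -0.02.

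FOS, the founding AP-1 gene, lies on chromosome 7 from 98449508 to 98451971 and had 7 regions, of which 5 were called in both breeds. They held 2928 Duroc and 2138 Luchuan reads together, a log2 ratio of 0.11 (0.03 to 0.19) that became -0.09 with scaling by clean reads. Most reads fell over the lower end of the gene, at 98449202 to 98450236, with 1003 in Duroc and 723 in Luchuan. Its ratio was 0.09 (-0.05 to 0.23), so the breeds did not differ beyond counting error there. More than 1 kb below that end, the region at 98447410 to 98448313 showed 891 reads in Duroc and 675 in Luchuan and a ratio of 0.17 (0.02 to 0.31), the only FOS region whose interval left out 0. Across the upper end, from 98451597 to 98452104, stood 370 Duroc and 274 Luchuan reads with a ratio of 0.13 (-0.10 to 0.36). The 7 ratios stayed between -0.14 and 0.29, and no midpoint lay in another gene.

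FOSB encodes the Fos protein known for its long-lived truncated form and lies on chromosome 6 from 51836780 to 51844531. Its 7 regions held 2761 Duroc and 1703 Luchuan reads, a log2 ratio of -0.13 (-0.22 to -0.04). No region lay over an end of the gene. The region with the most reads was inside it, from 51838725 to 51839701, with 989 Duroc and 574 Luchuan reads and a ratio of -0.22 (-0.37 to -0.07). At 51837063 to 51837568, which begins 283 bases inside the lower end, 379 reads in Duroc and 214 in Luchuan gave a ratio of -0.26 (-0.51 to -0.01). A short Duroc-specific region next to the strongest one, at 51839837 to 51840013, had 118 reads in Duroc and 45 in Luchuan. Its ratio of -0.81 (-1.35 to -0.32) was the lowest outside ATF3. The regions outside the gene body had ratios of 0.19, 0.04 and -0.16, and their intervals included 0. The 3 FOSB regions with an interval below 0 were thus all inside the gene, where the other one had a ratio of 0.02 (-0.40 to 0.44). With the gene body alone, the summed ratio was -0.24. FOS and FOSB together gave -0.0001 (-0.06 to 0.06).

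JUN, which encodes the main partner of FOS in AP-1, lies on chromosome 6 from 153686425 to 153687635, and 1 region dominated it. This region, from 153684973 to 153686516 over the lower end, was 1544 bases long and held 1746 Duroc and 1098 Luchuan reads, 76.2% and 76.5% of the reads of the gene. Its log2 ratio was -0.10 (-0.21 to 0.01). The gene as a whole, with 2290 Duroc and 1435 Luchuan reads, had a ratio of -0.11 (-0.20 to -0.01). All 4 regions of JUN were below 0. The only one with an interval below 0 was a Duroc-specific region 7576 bases beyond the upper end, from 153695211 to 153695519, with 85 Duroc and 37 Luchuan reads and a ratio of -0.62 (-1.23 to -0.06).

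JUNB encodes a Jun protein that acts as a brake on JUN in many cells and supports muscle mass, and it occupies 66214086 to 66219435 on chromosome 2. Its 10 regions summed to 3962 Duroc and 2582 Luchuan reads, a log2 ratio of -0.05 (-0.12 to 0.02). The strongest regions lay inside the gene. From 66215548 to 66216220 there were 696 Duroc and 489 Luchuan reads, a ratio of 0.06 (-0.11 to 0.23). From 66216923 to 66217618 there were 681 and 463 reads, a ratio of 0.01 (-0.16 to 0.18). The region nearest to an end of the gene, 86 bases below the lower one at 66213596 to 66214000, had 369 reads in Duroc and 230 in Luchuan and a ratio of -0.12 (-0.36 to 0.13). JUNB sits among other genes, and 4 of its 10 regions had their midpoint in RNASEH2A, PRDX2 or HOOK2. The only interval without 0 belonged to one of these, from 66207470 to 66207992 in RNASEH2A, with 427 Duroc and 240 Luchuan reads and a ratio of -0.26 (-0.50 to -0.03). Inside the gene body alone, the ratio of JUNB was 0.03. JUN and JUNB together had a ratio of -0.07 (-0.13 to -0.01), with 10 of 14 regions below 0.

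EGR1, an early target of growth factor and stretch signals, lies on chromosome 2 from 140440829 to 140445302 and had 3 regions, all called in both breeds. The region over the lower end, from 140440501 to 140441490, held 1086 Duroc and 809 Luchuan reads, 81.8% and 82.7% of the reads of the gene. By reads per kb it stood at percentile 99.88 of all regions in Duroc and 99.92 in Luchuan. Its log2 ratio was 0.14 (0.01 to 0.27), and that of the gene, from 1328 Duroc and 978 Luchuan reads, was 0.13 (0.0046 to 0.25) and turned below 0 with scaling by clean reads. The small regions on its sides, 597 bases below the lower end and 746 bases beyond the upper end, had ratios of 0.19 (-0.20 to 0.59) and -0.14 (-0.59 to 0.30), so the value of EGR1 came from 1 region.

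MYC occupies 12455141 to 12460360 on chromosome 4. Its 3 regions, all common, held 908 Duroc and 732 Luchuan reads, the fewest of the 10 genes, and gave the highest ratio, 0.26 (0.11 to 0.40). The strongest region lay over the upper end, from 12459780 to 12460854, with 583 Duroc and 482 Luchuan reads and a ratio of 0.29 (0.12 to 0.47). Beyond that end, the region at 12462142 to 12462483 counted 154 reads in Duroc and 134 in Luchuan, a ratio of 0.36 (0.02 to 0.71). Inside the gene, from 12458280 to 12458594, the counts were 171 and 116 and the ratio was 0.01 (-0.35 to 0.36). The ratio of MYC corresponds to 1.19-fold, and with scaling by clean reads, which shifts every gene by -0.20, it was 0.06.

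The NR4A receptors can act without a bound ligand, and their activity depends in part on their expression. NR4A1, also called Nur77, had 13 regions around its position on chromosome 5 from 17403088 to 17407918, which RefSeq lists as a pseudogene in this assembly. They held 4269 Duroc and 3244 Luchuan reads, the most of any member, and a log2 ratio of 0.17 (0.10 to 0.24), which scaling by clean reads turned to -0.03. Of the 13 regions, 11 were above 0. The differences lay around the gene body rather than at the strongest region. The latter, at 17399351 to 17400611 and 2477 bases below the lower end, held 1227 reads in Duroc and 842 in Luchuan, a ratio of 0.02 (-0.10 to 0.15). Over the upper end, from 17407481 to 17408124, stood 387 Duroc and 377 Luchuan reads, a ratio of 0.53 (0.32 to 0.74). Further out, from 17408692 to 17409678, there were 653 and 556 reads and a ratio of 0.33 (0.17 to 0.50). On the other side, from 17402237 to 17402822 and 266 bases below the lower end, 502 Duroc and 399 Luchuan reads gave 0.23 (0.04 to 0.43). The short region over the lower end itself, at 17402930 to 17403091, held 130 reads in Duroc and 110 in Luchuan, a ratio of 0.32 (-0.05 to 0.70). The summed ratio of NR4A1 therefore depended on the window. It was 0.32 within 2 kb of the gene and 0.53 for the body alone, which holds 1 region midpoint.

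NR4A2, or Nurr1, lies on chromosome 15 from 63487051 to 63506249, and 9 of its 10 regions were called in both breeds. With 3114 Duroc and 2335 Luchuan reads its log2 ratio was 0.15 (0.07 to 0.23), and -0.05 with scaling by clean reads. Reads were most numerous in the middle of the gene, at 63496561 to 63497571, with 939 in Duroc and 696 in Luchuan and a ratio of 0.13 (-0.01 to 0.28). The region that ends 127 bases inside the upper end, from 63505167 to 63506122, had 720 and 553 reads and a ratio of 0.19 (0.02 to 0.35). The highest ratio of the 80 regions stood 4095 bases below the lower end, from 63482711 to 63482956, where 42 Duroc and 55 Luchuan reads gave 0.94 (0.35 to 1.57). Beside it, the Luchuan-specific region at 63483107 to 63483358 showed 34 reads in Duroc and 41 in Luchuan, a ratio of 0.82 (0.15 to 1.54). Among all regions they stood at percentiles 38.7 and 32.0 by Duroc reads and at 60.9 and 52.4 by Luchuan reads. They were the only regions of the 10 genes with more Luchuan than Duroc reads before scaling, apart from 1 region of NR4A3.

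NR4A3, also called NOR-1, occupies 241569867 to 241611735 on chromosome 1. Its 8 regions held 2374 Duroc and 1636 Luchuan reads, a log2 ratio of 0.03 (-0.06 to 0.12). A pair of strong common regions near its lower end carried most of these reads. From 241567358 to 241568448, below the gene, there were 1113 Duroc and 767 Luchuan reads, a ratio of 0.03 (-0.11 to 0.16). Over the lower end, from 241569169 to 241570153, there were 975 and 690 reads, a ratio of 0.07 (-0.07 to 0.21). The other 6 regions lay inside the gene, were each called in 1 breed only and had at most 87 Duroc reads. Their ratios ranged from -0.41 to 0.90, and every interval included 0. The midpoints of both strong regions lie below the lower end, so the gene body alone held these 6 weak regions, and its summed ratio was -0.11. Taken over the 3 NR4A genes, the ratio was 0.13 (0.09 to 0.18), inside the interquartile range of single genes, -0.14 to 0.15. Scaling by clean reads turned each of the 3 genes below 0. Of their 31 regions, 23 were above 0, beside 43 of the 80 member regions, which include them. The interval lay above 0 for 3 regions of NR4A1, 3 of NR4A2 and 0 of NR4A3. Among all regions the interval lay above 0 for 13.6%, with depth not matched. The share of all regions with a ratio above 0 was not counted, and their median ratio was -0.02.

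**Figure D3:**
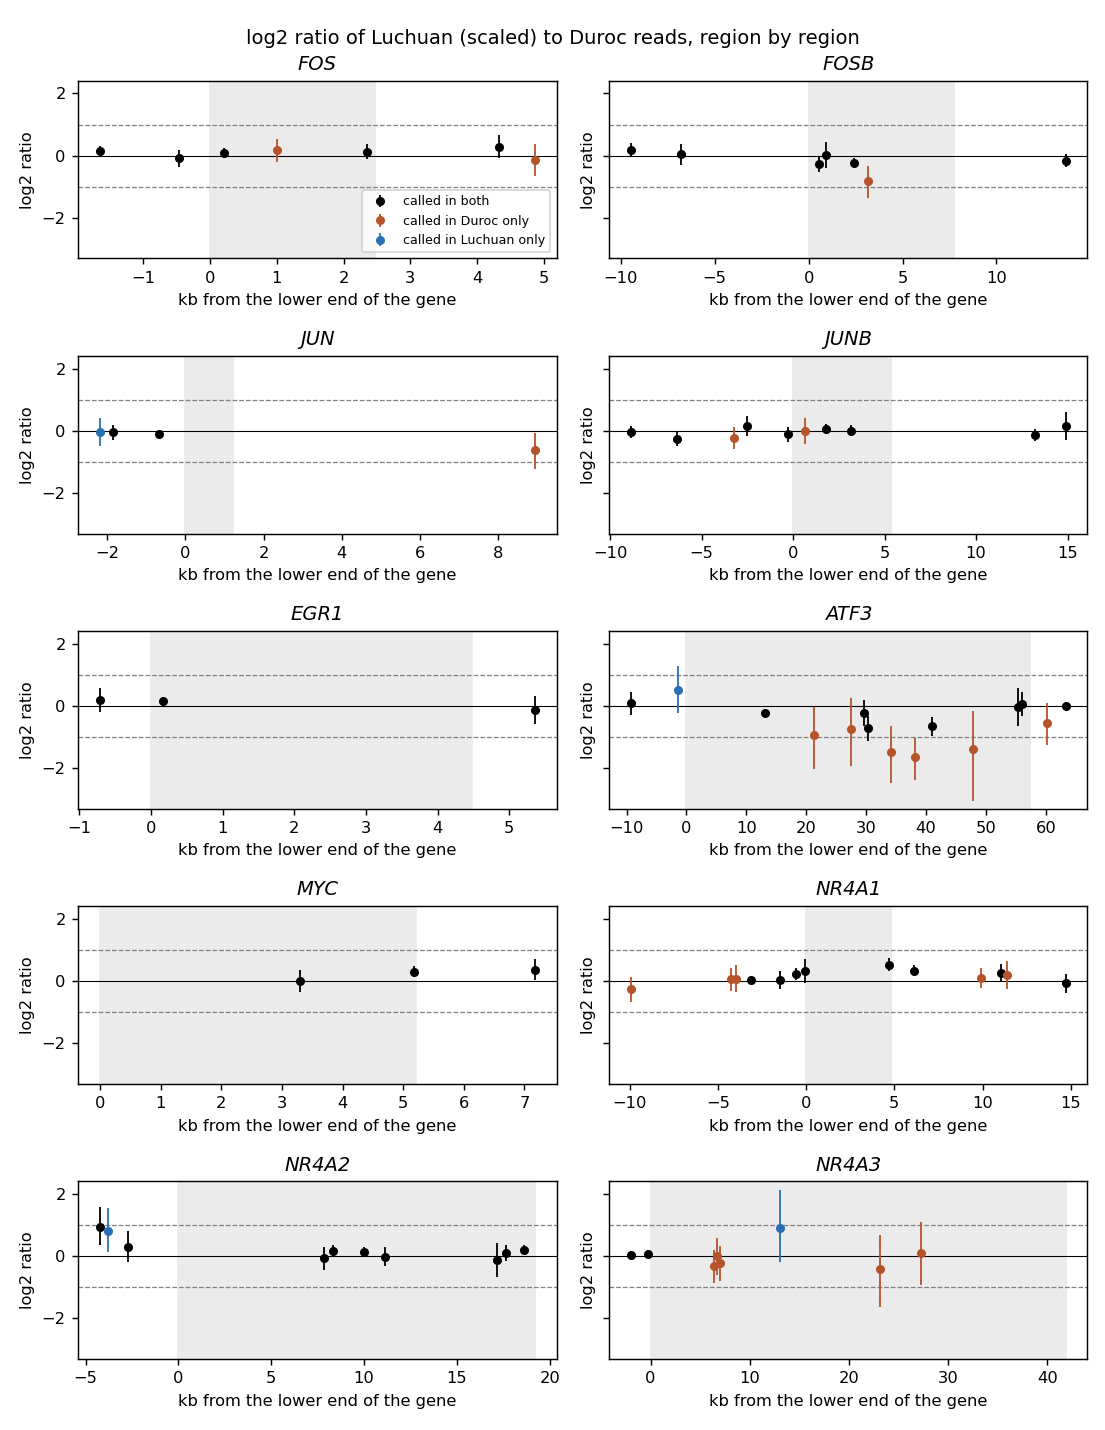
Log2 ratio of Luchuan to Duroc reads (vertical axis) of each of the 80 regions against the distance of its middle from the lower end of its gene in kb, with 95% counting intervals as bars. Grey marks the gene body, dashed lines mark 2-fold, and colours give the breed that called the peak. The points below the lower dashed line are 3 regions inside ATF3. Scaling by clean reads would shift every point by about -0.20.

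ATF3, which is induced by many kinds of cell stress and represses as well as activates transcription, differed most between its regions. It lies on chromosome 9 from 130772259 to 130829678, the longest of the 10 genes, and its 15 regions held 3824 Duroc and 2192 Luchuan reads. The summed ratio was -0.24 (-0.31 to -0.16), that is 1.18-fold more in Duroc, and 12 of the 15 regions were below 0. The strongest region, inside the gene at 130784595 to 130786288 and 1694 bases long, held 1558 reads in Duroc and 902 in Luchuan, a ratio of -0.22 (-0.34 to -0.10). The next strongest, beyond the upper end from 130834913 to 130836236, had 952 and 638 reads and a ratio of -0.01 (-0.16 to 0.14). Close to the upper end, the regions from 130827556 to 130827811 and from 130828024 to 130828488 had ratios of -0.03 (-0.64 to 0.56) and 0.05 (-0.34 to 0.43). The interval of each of the 4 regions from there upward included 0.

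Between these lay the regions past 2-fold. From 130810298 to 130810598 there were 109 Duroc and 23 Luchuan reads, a ratio of -1.65 (-2.39 to -1.02). From 130806286 to 130806498 there were 59 and 14 reads, a ratio of -1.46 (-2.46 to -0.65). From 130820044 to 130820203 there were 25 and 6 reads, a ratio of -1.40 (-3.07 to -0.17). All 3 were called in Duroc only. They had few reads, and the Luchuan counts of 6, 14 and 23 set the width of the intervals. Stronger common regions among them pointed the same way without reaching 2-fold. From 130812982 to 130813579 there were 291 Duroc and 125 Luchuan reads, a ratio of -0.65 (-0.97 to -0.35). From 130802306 to 130802842 there were 179 and 73 reads, a ratio of -0.72 (-1.14 to -0.33). The region just below the latter, from 130801802 to 130802077, had 128 and 74 reads and a ratio of -0.22 (-0.66 to 0.20).

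From 130793457 to 130820203 all 8 regions were below 0, over 26.7 kb inside the gene. Together they held 857 Duroc and 339 Luchuan reads, a log2 ratio of -0.77 (-0.96 to -0.59), that is 1.71-fold more in Duroc. The other 7 regions of ATF3, with 2967 and 1853 reads, had a ratio of -0.11 (-0.20 to -0.03). This stretch was delimited after the values had been seen, from the first Duroc-specific region of ATF3 to its last region past 2-fold. Most of the 8 regions, the first and the last among them, were called in Duroc only and entered through Duroc reads. The lower ratio of the stretch follows in part from this choice, so the difference is a description. Without the 3 regions past 2-fold, the ratio of ATF3 was -0.19 (-0.27 to -0.11), and with the regions called in both breeds alone it was -0.18. With the gene body alone it was -0.36. The 110 other regions within 500 kb of ATF3 had a median ratio of -0.0068 with an interquartile range of -0.24 to 0.29. Single regions spread more than sums over regions, so this range does not place the sum of ATF3. Summed over their reads, these 110 regions had a ratio of 0.02.

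**Figure D4:**
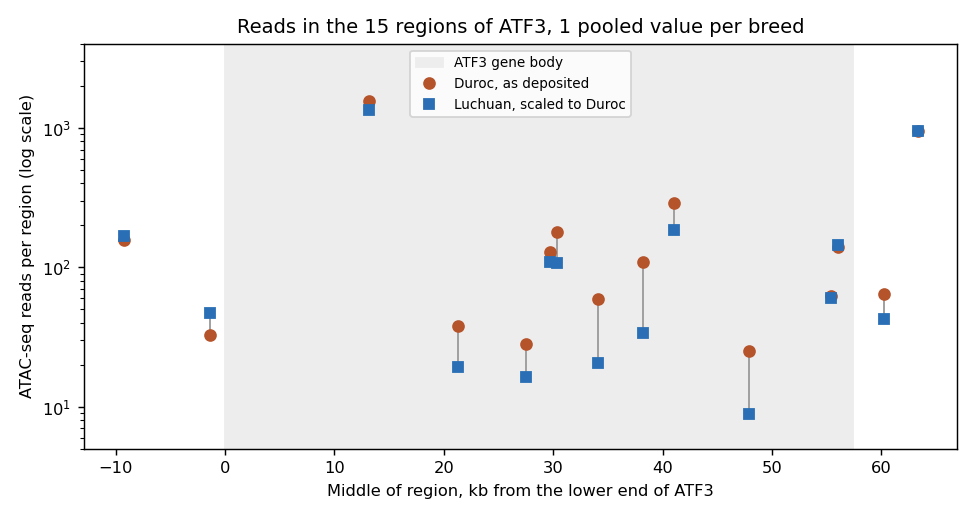
Reads per region on a log axis against the distance of the middle of the region from the lower end of ATF3 in kb, as deposited for Duroc and multiplied by 1.48 for Luchuan, 1 pooled value per breed. Lines join both values of a region. Duroc lies above Luchuan at each of the 8 regions between 21.3 and 47.9 kb, which held 857 Duroc and 339 Luchuan reads before scaling. This stretch was delimited after the values had been seen, and most of its regions were called in Duroc only.

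Other genes of the response were described from lists written by hand. Of 38 further immediate early and stress response genes, all had regions, 1 was higher in Luchuan by 1.5-fold or more and 0 were higher in Duroc by that much, beside the 5.46% and 3.08% of all genes. The 1 call was lost with scaling by clean reads and with the gene body only. The median log2 ratio of the 38 genes was 0.06, against -0.0015 for all genes with an interquartile range of -0.14 to 0.15. Of the 38, 26 were above 0, and the counting interval lay above 0 for 14 and below 0 for 6. Among all genes the interval lay above 0 for 23.2% and below 0 for 24.7%, with depth not matched. The gene past the limit was CEBPD, a leucine zipper factor induced by glucocorticoids and inflammation, with 1836 Duroc and 1926 Luchuan reads in 6 regions and a ratio of 0.64 (0.54 to 0.73). The lowest was IER2, with 1498 Duroc and 773 Luchuan reads and a ratio of -0.39 (-0.52 to -0.26). The Fos and Jun relatives FOSL2, FOSL1 and JUND had ratios of 0.14 (0.05 to 0.24), -0.04 (-0.19 to 0.12) and -0.01 (-0.10 to 0.07). EGR2 had 0.22 (0.13 to 0.32), EGR3 -0.14 (-0.33 to 0.04) and EGR4 0.36 (-0.19 to 0.92), the last from 62 Duroc and 54 Luchuan reads in 1 region, so that its interval reached past 1.5-fold.

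Of 22 upstream factors and kinases, which carry signals to the promoters of these genes, 0 passed 1.5-fold in Luchuan and 2 passed it in Duroc, with a median ratio of -0.03. Beside the same shares of all genes, and with the Duroc count at 1 under 4 of the alternatives, scaling by total reads among them, this is a description of single genes. MEF2A, a muscle factor that also binds immediate early promoters, had 1900 Duroc and 742 Luchuan reads in 35 regions and a ratio of -0.79 (-0.91 to -0.67). MAPK3, which encodes the kinase ERK1, had 901 and 401 reads and a ratio of -0.60 (-0.77 to -0.43), close to the limit of 1.5-fold, which it misses with scaling by total reads. SRF, the serum response factor, and CREB1, the cAMP response factor, had ratios of 0.02 (-0.08 to 0.12) and -0.03 (-0.13 to 0.07), within counting error of 0.

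**Figure D5:**
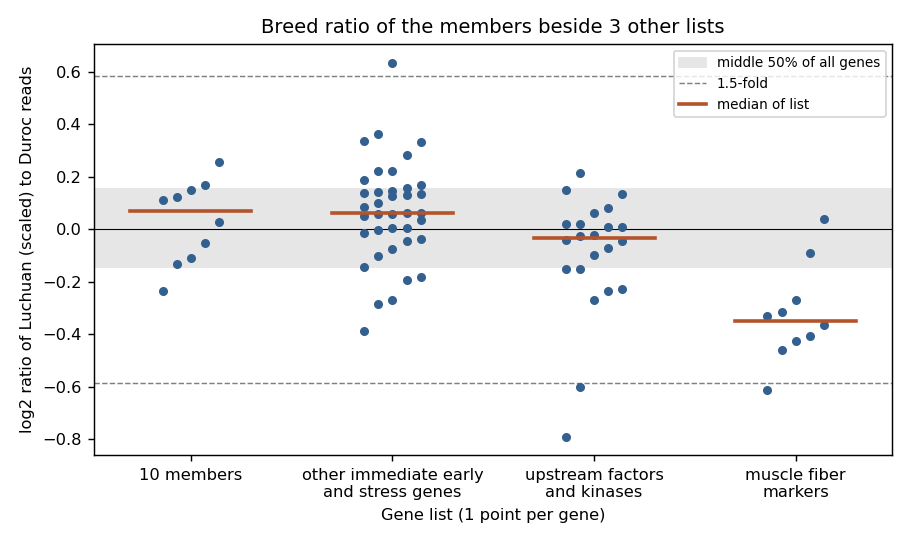
Log2 ratio of Luchuan to Duroc reads (vertical axis) of the 10 members, of 38 other immediate early and stress genes, of 22 upstream factors and kinases and of 10 muscle fiber markers, 1 point per gene with the median of each list as a line. The medians were 0.07, 0.06, -0.03 and -0.35, dashed lines mark 1.5-fold, the grey band is the interquartile range of all genes, and scaling by clean reads would shift every point by about -0.20.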

How the data were processed

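Reads were filtered by the authors with Trimmomatic (v0.36, also in the submitters' processing notes), Bowtie2 served for alignment to Sscrofa11.1 and MACS2 for peak detection. How duplicate reads and the transposase offset were handled, and which tool counted reads per peak, is not given in the sources used here. The deposited table holds whole-number read counts per peak interval, 1 column per breed with no replicate named, read here as pooled over the 3 boars. It also holds 3 columns of the authors' own breed comparison, which were not used. Of 217213 intervals, overlapping or adjoining common ones were merged and the longest stood for the region, which gave 140081 regions. Starts were taken as counted from 0 and are printed counted from 1. Counts were scaled by the median over 68776 common regions, summed per gene and given with Clopper-Pearson intervals. The design had assumed a promoter motif search, which was not run, since no sequence was at hand. Older symbols CYR61, CTGF, MKL1 and MKL2 served for CCN1, CCN2, MRTFA and MRTFB. Named were all members, for each of them the region over a gene end, that with the most reads and those past 2-fold with 20 reads or more, and list genes past 1.5-fold. Other regions and list genes (IER2, FOSL1, FOSL2, JUND, EGR2, EGR3, EGR4, SRF, CREB1) were named after their values were seen. Members and lists were chosen with earlier results of these data known. Scripts were tested on simulated data and ran in Python 3.11.15 with SciPy 1.17.1, pandas 2.3.3, Matplotlib 3.10.9 and NumPy 2.4.6. Alternatives covered the scaling, the window, the choice of interval, the pseudocount, a filter on low counts, the fold and the peak class. Gene positions are those of RefSeq.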

Additional observations from a re-analysis of the deposited data

How the results depend on the processing

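Scaling by the clean reads of the libraries had the widest effect. It moved the median log2 ratio of the 10 genes to -0.13 and that of the other immediate early and stress genes to -0.14, left 0 of the latter past 1.5-fold in Luchuan and 1 in Duroc, and put 5 member regions past 2-fold in Duroc, 4 of ATF3 and 1 of FOSB. With the regions called in both breeds alone, 0 member regions were past 2-fold in Duroc. A threshold of 1.5-fold gave 3 member regions in Luchuan and 9 in Duroc, and 3-fold gave 1 in Duroc. With the gene body only, 0 of the other immediate early and stress genes passed 1.5-fold in Luchuan and JUN had no region, and with 2 kb around the gene 1 passed it in Duroc. Scaling by total reads, signal-dependent scaling, every listed interval and common regions only each left 1 upstream gene past 1.5-fold in Duroc. The causes were not tested. Of 139 ratios of single members under 14 alternatives, 119 stayed within the counting interval of the reported value, and ATF3 was the lowest member under each alternative. The tally does not measure robustness, since several alternatives could change few or no ratios. No member region fell to the filter at 20 reads, only ATF3 had regions past 2-fold, and only JUNB had regions in another gene. Scaling by clean reads took all 10 ratios out of their intervals. MYC was the highest member under most alternatives but not all. NR4A1 was highest instead, at 0.53 with the gene body only, 0.32 with 2 kb around the gene and 0.23 without each gene's strongest region. NR4A3 changed sign under signal-dependent scaling, and JUNB did so with 2 kb around the gene. The removal of each gene's strongest region or of the regions past 2-fold, and the alternatives for the 2 lists, were chosen after seeing the data. No paired analysis was possible because the table has 1 pooled column per breed, and for the same reason no replicate could be left out. A region with few reads, such as 6 in Luchuan, allows no firm statement on its ratio.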

Other observations

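The surroundings of the genes give a local reference. The median log2 ratio of the other regions within 500 kb was below 0 for 9 of the 10 genes, from -0.22 around JUNB to -0.0068 around ATF3, and it was 0.03 around MYC. NR4A1 had 0.17 where the 87 regions around it had a median of -0.12, and FOS had 0.11 where 109 regions had -0.10. EGR1 had 0.13 beside -0.13 over 103 regions. JUN had -0.11 beside -0.02 over 85 regions. FOSB had -0.13 beside -0.17 over 114 regions and JUNB -0.05 beside -0.22 over 104, so neither lay further towards Duroc than its surroundings. The ratio was above the median of the surroundings for 8 of the 10 genes, all but JUN and ATF3. These medians weigh single regions alike, while the value of a gene is a sum in which strong regions count more. Summed over their reads, the surroundings had -0.20 for NR4A1, -0.03 for FOS, -0.12 for EGR1, -0.07 for JUN, -0.18 for FOSB and -0.24 for JUNB. The summed surroundings had 0.02 for ATF3 and -0.04 for MYC, with the sign opposite to that of their medians. How often other genes differ as much from their surroundings was not computed, and neighbouring regions of pooled libraries are not replicates of animals.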
